A study of Mus musculus with 6 samples.

Results

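The 51 genes described here are the chemokines and chemokine receptors of the mouse that were measured in sorted thymic epithelial cells, 31 of them ligands and 20 receptors, out of 30176 genes with a single symbol on the array. They were taken by name: symbols that begin with Ccl, Cxcl, Ccr, Cxcr or Ackr and a digit, and Xcl1, Xcr1, Cx3cl1 and Cx3cr1, with the probe set of highest mean where a gene had several. Ccl6, Ccl9, Ccl20, Ccl25 and Cxcl12 stand outside the rule. The labels give the KO group as samples from 3 socs3fl/fl act cre ER mice, in which both alleles of the cytokine signaling inhibitor Socs3 carry loxP sites and a tamoxifen-activated Cre recombinase is driven ubiquitously from an actin-based promoter. They give the WT group as samples from 3 socs3fl/fl mice, with the same loxP-flanked alleles and no Cre. Both groups received tamoxifen, and epithelial cells (EpCAM+ and negative for the leukocyte antigen CD45) were sorted 7 days later. Cre is not restricted to the epithelium in such mice and is absent from the WT-labelled group, so loss of Socs3 in the epithelium, its loss in other cells and an effect of Cre itself cannot be told apart.

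Chemokines are small secreted proteins that guide cells along gradients by binding G protein-coupled receptors on the cells that move. In the thymus, epithelial cells of the cortex and medulla secrete the ligands that draw in blood-borne progenitors, move maturing thymocytes from cortex to medulla through CCR7, and place dendritic cells in the medulla through XCR1 and other receptors. The receptors themselves are known mainly from leukocytes, and atypical receptors, some of them on epithelium and endothelium, take up ligands without signaling through G proteins.

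Values are log2 signals after each array was shifted to a common median, and differences are KO-labelled minus WT-labelled arrays with their standard error (SE) from a linear model fitted over all genes with limma. A gene was called where its p, adjusted over all 30176 genes by the method of Benjamini and Hochberg, fell below 0.05. Arrays are listed as replicates 1, 2 and 3 of each group. A gene at or below 10.22, the 95th percentile of 5222 negative control probe sets, is described as not above the negative control level, and its difference then has no firm scale. Since the samples were bulk RNA, fewer cells of a type and less RNA per cell cannot be told apart. The KO-labelled and WT-labelled arrays correlated at 0.980 to 0.996 over genes, except KO replicate 2, which correlated with the other 5 at 0.962 to 0.980 and had the narrowest spread of values over genes (SD 2.33, against 2.61 to 2.67).

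Socs3, the deleted gene, was read first. Its signal was 8.55, 8.15 and 8.39 on the KO-labelled arrays, against 7.995, 8.26 and 7.88 on the WT-labelled arrays. The groups overlapped, the difference was 0.32 (SE 0.16), and an exact two-sided permutation test gave p = 0.2, where 3 arrays against 3 can go no lower than 0.1. The gene was not above the negative control level in either group, and it was not lower on the KO-labelled arrays, so the arrays are named throughout by their labels. Whether the labels are exchanged, or the Socs3 probe set lies outside the deleted part, was not tested. The place of the probe set would bear on the Socs3 value alone, not on the values of other genes. If they are exchanged, every direction given here turns. The members that the study lists by name are Ccr4, Ccl22, Cxcl9, Ccr7 and Cxcl14. By these labels, the direction of their differences, and of those of Aire and Cd80, is opposite to the one the study gives.

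Among the 51 genes, 4 were called higher on the KO-labelled arrays (Ccr4, Ccl22, Ccr7 and Xcl1) and 1 was called lower (Cxcl14). This was 7.84% called higher, where 0.517% of all genes were, and 1.96% called lower, where 1.18% of all genes were. The groups did not overlap and lay higher on the KO-labelled arrays for 18 members, or 35.3%, against 8.14% of all genes. They lay apart in the lower direction for 6 members, or 11.8%, against 26.4% of all genes. The median difference was 0.25 over the members and -0.05 over all genes. The calls depended on single arrays. With any 1 of the 5 arrays other than KO replicate 2 left out, limma called no member, the adjusted p of these 5 genes lay between 0.0817 and 0.204, and at an unadjusted p under 0.05 there were 13 to 16 members higher and 5 to 7 lower, where 3.37% to 5.63% of all genes were higher and 9.19% to 19.5% lower. With all arrays 17 members were higher at that threshold, against 5.86% of all genes, and 6 were lower, against 17.9% of all genes. Without KO replicate 2, 15 members were called higher, against 5.15% of all genes, and 3 lower, against 6.05%, these 5 genes among them.

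**Figure D1:**
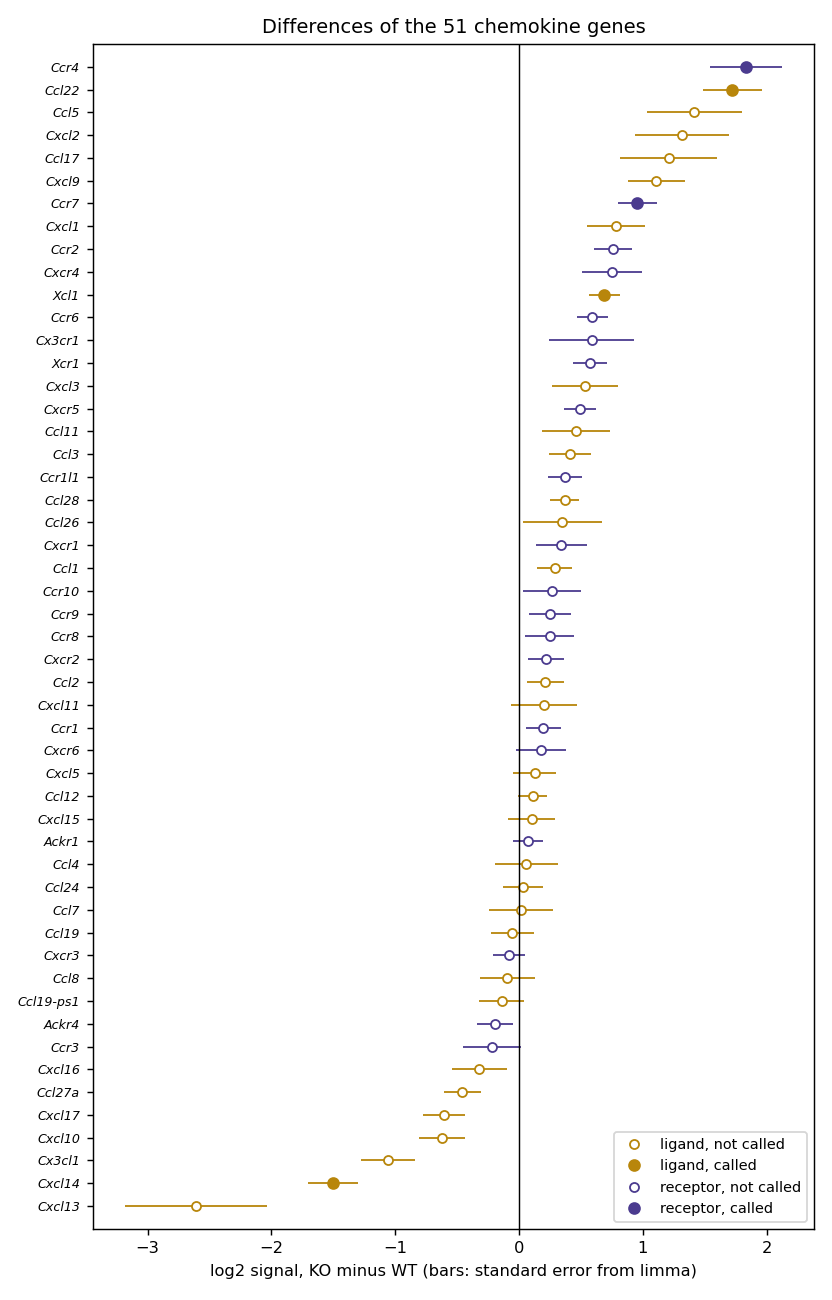
Difference in log2 signal, KO-labelled minus WT-labelled arrays, for each of the 51 genes, with bars of 1 SE from limma and filled points for the called genes. Differences run from 1.83 for Ccr4 to -2.61 for Cxcl13.

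The signal was low for most members. In both groups, 40 of the 51 were not above the negative control level, 8 were above it in both groups, Ccr7 only in the KO-labelled group, and Ccl27a and Cx3cl1 only in the WT-labelled group. Differences also moved with signal over the whole array. The median difference of all genes was 0.06 where the mean over the arrays was under 6, -0.03 between 6 and 8, -0.36 between 8 and the negative control level, and -0.34 above it. The members' medians in the same ranges were 0.19 over 14 genes, 0.27 over 17 genes, 0.66 over 10 genes and -0.10 over 10 genes. The plot of signal against difference places each member among genes of like signal.

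**Figure D2:**
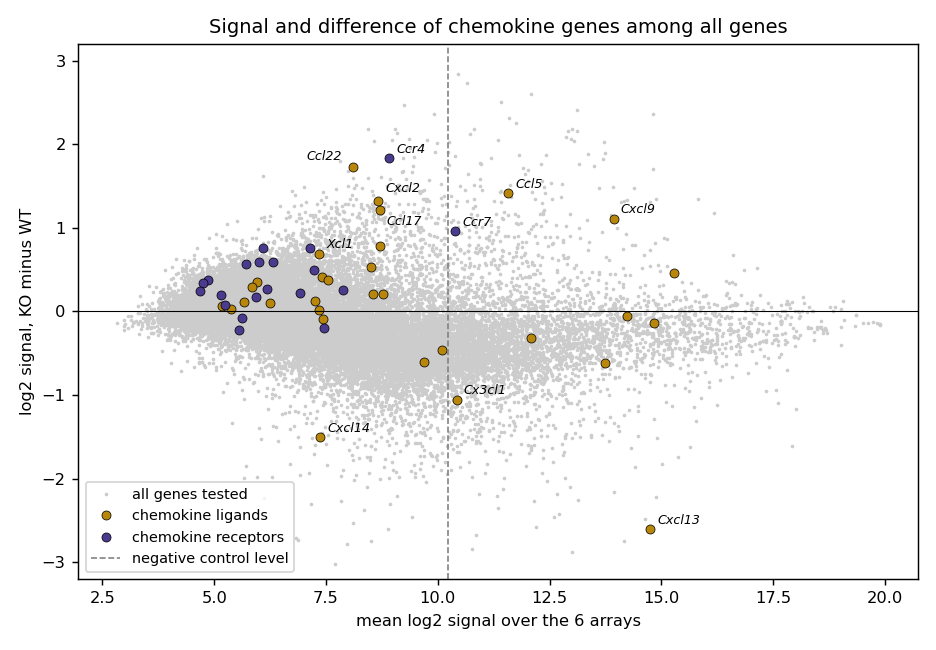
Mean log2 signal over the 6 arrays (horizontal) against the difference in log2 signal, KO-labelled minus WT-labelled arrays (vertical), for all genes tested in grey, chemokine ligands in ochre and receptors in purple. The dashed line is the negative control level of 10.22, and 4 genes fall outside the vertical axis; grey points right of the dashed line lie mostly below 0, with a median of -0.34.

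Promoters are shown for 6 ligands: Ccl22, Cx3cl1 and Ccl17, which stand side by side on chromosome 8 and differ in opposite directions, Cxcl9 and Cxcl10, which stand near each other on chromosome 5 and also differ in opposite directions, and Cxcl14, the gene called lower. The sequences are the 250 bases before the annotated start, from RefSeq on GRCm38.p6, written in the direction of the gene. Capitals mark matches to a form of the kappa B motif bound by NF-kB factors (GGG, any 5 bases, CC) and to TTCNNNGAA, the GAS motif bound by STAT factors, the family that Socs3 restrains in cytokine signaling. Both strands were searched, matches to a motif can overlap each other, and a match is only a match of letters.
Ccl22 (chr8:94745434-94745683, plus strand): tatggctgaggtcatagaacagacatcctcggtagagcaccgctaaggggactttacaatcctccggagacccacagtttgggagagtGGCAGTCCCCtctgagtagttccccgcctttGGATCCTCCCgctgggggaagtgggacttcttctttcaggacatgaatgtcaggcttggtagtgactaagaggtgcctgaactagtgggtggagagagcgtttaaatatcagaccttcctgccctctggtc
Cx3cl1 (chr8:94771930-94772179, plus strand): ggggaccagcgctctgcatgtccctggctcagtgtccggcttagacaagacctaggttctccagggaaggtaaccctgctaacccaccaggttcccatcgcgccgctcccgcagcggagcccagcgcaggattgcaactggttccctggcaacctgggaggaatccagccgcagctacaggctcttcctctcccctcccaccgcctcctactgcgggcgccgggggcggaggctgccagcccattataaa
Ccl17 (chr8:94810203-94810452, plus strand): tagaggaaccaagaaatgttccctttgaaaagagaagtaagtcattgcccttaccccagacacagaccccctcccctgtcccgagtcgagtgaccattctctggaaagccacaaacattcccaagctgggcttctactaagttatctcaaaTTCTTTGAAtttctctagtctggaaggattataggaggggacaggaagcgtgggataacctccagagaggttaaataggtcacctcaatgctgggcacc
Cxcl9 (chr5:92328080-92328329, minus strand): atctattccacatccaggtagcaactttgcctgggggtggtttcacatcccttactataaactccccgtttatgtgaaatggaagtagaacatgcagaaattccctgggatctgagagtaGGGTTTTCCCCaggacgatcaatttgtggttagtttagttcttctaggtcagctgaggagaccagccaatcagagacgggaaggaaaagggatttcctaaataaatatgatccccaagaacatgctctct
Cxcl10 (chr5:92348890-92349139, minus strand): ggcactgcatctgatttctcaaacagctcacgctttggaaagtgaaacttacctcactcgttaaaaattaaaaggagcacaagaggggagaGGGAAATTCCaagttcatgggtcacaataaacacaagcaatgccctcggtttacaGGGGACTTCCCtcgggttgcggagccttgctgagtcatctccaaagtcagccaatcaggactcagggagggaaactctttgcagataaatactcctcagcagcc
Cxcl14 (chr13:56296552-56296801, minus strand): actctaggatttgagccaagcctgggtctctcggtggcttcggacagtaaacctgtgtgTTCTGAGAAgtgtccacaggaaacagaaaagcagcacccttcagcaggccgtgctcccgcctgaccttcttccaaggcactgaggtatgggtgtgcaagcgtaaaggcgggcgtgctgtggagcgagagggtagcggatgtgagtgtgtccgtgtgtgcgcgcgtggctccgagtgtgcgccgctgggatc
In these windows Ccl22 held kappa B letters beginning 162 and 131 bases before the start, Cx3cl1 held neither motif, and Ccl17 held GAS letters 99 bases before the start. Cxcl9 held overlapping kappa B matches from 130 bases before the start. Cxcl10 held a kappa B match from 159 and overlapping matches from 104, and Cxcl14 held GAS letters 191 bases before the start. Of the members, 36 matched an entry in the promoter table, with 39 promoters. The kappa B letters were in 23 of these 39 (59.0%) and in 45.8% of all 32851 promoters of the same length. The GAS letters were in 4 of the 39 (10.3%) and in 7.02% of all promoters.

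CCR4 and both its ligands differed upward, and the receptor and 1 ligand were called. Ccr4, a receptor of regulatory and memory T cells and of thymocytes that have just passed positive selection, read 10.18, 9.21 and 10.11 on the KO-labelled arrays, against 8.35, 7.88 and 7.77 on the WT-labelled arrays, a difference of 1.83 (SE 0.29, adjusted p = 0.0386 by limma) or a 3.56-fold higher signal. Ccl22, a CCR4 ligand made by dendritic cells and medullary epithelium, read 8.89, 8.82 and 9.22 on the KO-labelled arrays, against 7.76, 6.93 and 7.07 on the WT-labelled arrays, a difference of 1.72 (SE 0.24, adjusted p = 0.0343) or 3.30-fold. All 3 KO-labelled arrays lay above all 3 WT-labelled arrays for both genes, and neither gene was above the negative control level in either group. Ccl17, the other CCR4 ligand, read 9.98, 8.35 and 9.59 on the KO-labelled arrays, against 8.32, 7.99 and 7.98 on the WT-labelled arrays, with a difference of 1.21 (SE 0.39, adjusted p = 0.134) that did not pass the test. Its KO replicate 2 lay 0.03 above the highest WT-labelled array. Without that replicate the difference was 1.69 (adjusted p = 0.00406), in a fit where 5.15% of all genes were called higher. With any other single array left out, the adjusted p of Ccl17 was 0.195 to 0.403.

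The CCR7 axis carries positively selected thymocytes into the medulla. Ccr7, its receptor, read 10.56, 11.05 and 10.98 on the KO-labelled arrays, against 9.87, 9.91 and 9.94 on the WT-labelled arrays, a difference of 0.96 (SE 0.16, adjusted p = 0.0424) or 1.94-fold. It was the one called gene whose mean passed the negative control level, and only in the KO-labelled group. With an intensity-dependent prior variance its adjusted p was 0.0607. Ccl19, a CCR7 ligand, read 14.43, 14.02 and 14.15 on the KO-labelled arrays, against 14.53, 14.15 and 14.08 on the WT-labelled arrays, with overlapping groups and a difference of -0.05 (SE 0.18, adjusted p = 0.882), whose sign turned with the scaling of the arrays (0.083 without the shift to a common median and 0.15 after quantile normalization). Ccl19-ps1 is an annotated pseudogene copy that shares sequence with Ccl19. It read 14.96, 14.59 and 14.79 on the KO-labelled arrays, against 15.22, 14.89 and 14.65 on the WT-labelled arrays. Its groups overlapped, and it differed by -0.14 (SE 0.18, adjusted p = 0.688), or by 0.09 after quantile normalization. Ackr4, an atypical receptor that takes up CCR7 ligands, read 7.44, 7.30 and 7.36 on the KO-labelled arrays, against 7.39, 7.50 and 7.80 on the WT-labelled arrays, again with overlapping groups (difference -0.20, SE 0.15, adjusted p = 0.46).

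Ccl21, the CCR7 ligand of medullary epithelium, had no probe set with a single symbol, since its near-identical copies share their probes. In a fit over all 65956 transcript clusters, added after the values were seen, 9 clusters of the Ccl21 copies read 19.32 to 19.80 on the KO-labelled arrays, against 19.57 to 19.98 on the WT-labelled arrays. As deposited, these signals were 19.44 to 19.86, near the highest value in the table (19.93). The groups lay apart and lower for all 9, as they did for 26.4% of the genes with a single symbol. None of the 9 was called by limma (differences -0.24 to -0.20, adjusted p from 0.334 to 0.458), and without the shift between arrays the differences were -0.11 to -0.06. Another 5 clusters that mix Ccl19 with its copies differed by -0.15 to 0.08.

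Xcl1, which medullary epithelial cells secrete to draw in dendritic cells, read 7.66, 7.59 and 7.83 on the KO-labelled arrays, against 6.92, 7.04 and 7.05 on the WT-labelled arrays. The groups lay apart by a difference of 0.69 (SE 0.13, adjusted p = 0.0494) or 1.61-fold, at a signal not above the negative control level. Xcr1, its receptor on cross-presenting dendritic cells, read 6.01, 6.14 and 5.83 on the KO-labelled arrays, against 5.33, 5.39 and 5.54 on the WT-labelled arrays, also without overlap, but did not pass the test (difference 0.57, SE 0.14, adjusted p = 0.0784). Clec9a, which marks the same dendritic cells, differed by 0.26 (adjusted p = 0.58) and was not above the negative control level. Aire and Cd80, which mark mature medullary epithelium, were called higher on the KO-labelled arrays, by 1.76 (adjusted p = 0.0386) and 1.30 (adjusted p = 0.0429). Fezf2 and Tnfrsf11a, the remaining medullary markers, were not called (0.49 and 0.58, adjusted p = 0.114 and 0.212), and the groups overlapped for Tnfrsf11a. The summed signal of all 4 medullary markers was 17.07 to 17.49 on the KO-labelled arrays, against 16.62 to 16.80 on the WT-labelled arrays. That of the cortical markers was 16.85 to 17.44 on the KO-labelled arrays, against 17.57 to 18.41 on the WT-labelled arrays. Marker signals here and below were summed before taking log2, so the brightest gene leads each sum. These 2 sums were led by Fezf2 (mean 16.85) and Prss16 (mean 17.12). None of the 4 cortical markers, Cxcl12 among them, was called by limma, and all 4 lay apart and lower with an unadjusted p under 0.05. Of all genes 26.4% lay apart and lower, and 17.9% were lower at that p. The part of this balance of medullary and cortical markers in the chemokine differences was not tested.

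Cxcl14, a chemokine of epithelia that attracts monocytes and immature dendritic cells, was the one member called lower. It read 6.98, 6.43 and 6.46 on the KO-labelled arrays, against 8.09, 8.39 and 7.90 on the WT-labelled arrays, a difference of -1.503 (SE 0.20, adjusted p = 0.032) or a 2.84-fold lower signal. The groups were apart by more than the spread within either, and the gene was not above the negative control level in either group. Among the other chemokines of mucosa and skin, Cxcl17, an airway and gut ligand, read 9.55, 9.06 and 9.57 on the KO-labelled arrays, against 9.93, 9.99 and 10.08 on the WT-labelled arrays, without overlap (difference -0.61, SE 0.17, adjusted p = 0.103). Ccl27a, a skin ligand of CCR10, read 10.05, 9.61 and 9.93 on the KO-labelled arrays, against 10.32, 10.39 and 10.25 on the WT-labelled arrays, also lower and without overlap (difference -0.46, SE 0.15, adjusted p = 0.137). Its partner at mucosal surfaces, Ccl28, read 7.80, 7.70 and 7.67 on the KO-labelled arrays, against 7.31, 7.32 and 7.43 on the WT-labelled arrays. It went the other way without overlap (difference 0.37, SE 0.12, adjusted p = 0.127), at a signal not above the negative control level. Ccr10, the receptor of Ccl27a and Ccl28, read 6.33, 6.71 and 5.90 on the KO-labelled arrays, against 5.77, 6.11 and 6.26 on the WT-labelled arrays. Its groups overlapped (difference 0.27, SE 0.23, adjusted p = 0.537).

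The Ccl27a value is open to its gene copies. Across 5 further transcript clusters that carry Ccl27a or Ccl27b among several symbols, differences ran from -1.59 to 0.70. One, shared with the predicted gene Gm12394, read 8.80, 8.05 and 9.03 on the KO-labelled arrays, against 10.10, 10.17 and 10.37 on the WT-labelled arrays, a difference of -1.59 (SE 0.25, adjusted p = 0.0424 in the fit over all clusters, where 0.785% were called lower). The cluster at the other end, shared by both genes and 3 further symbols, read 13.10, 12.28 and 12.85 on the KO-labelled arrays, against 12.28, 11.72 and 12.14 on the WT-labelled arrays (adjusted p = 0.188). Probe sets for this family thus disagree in sign.

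**Figure D3:**
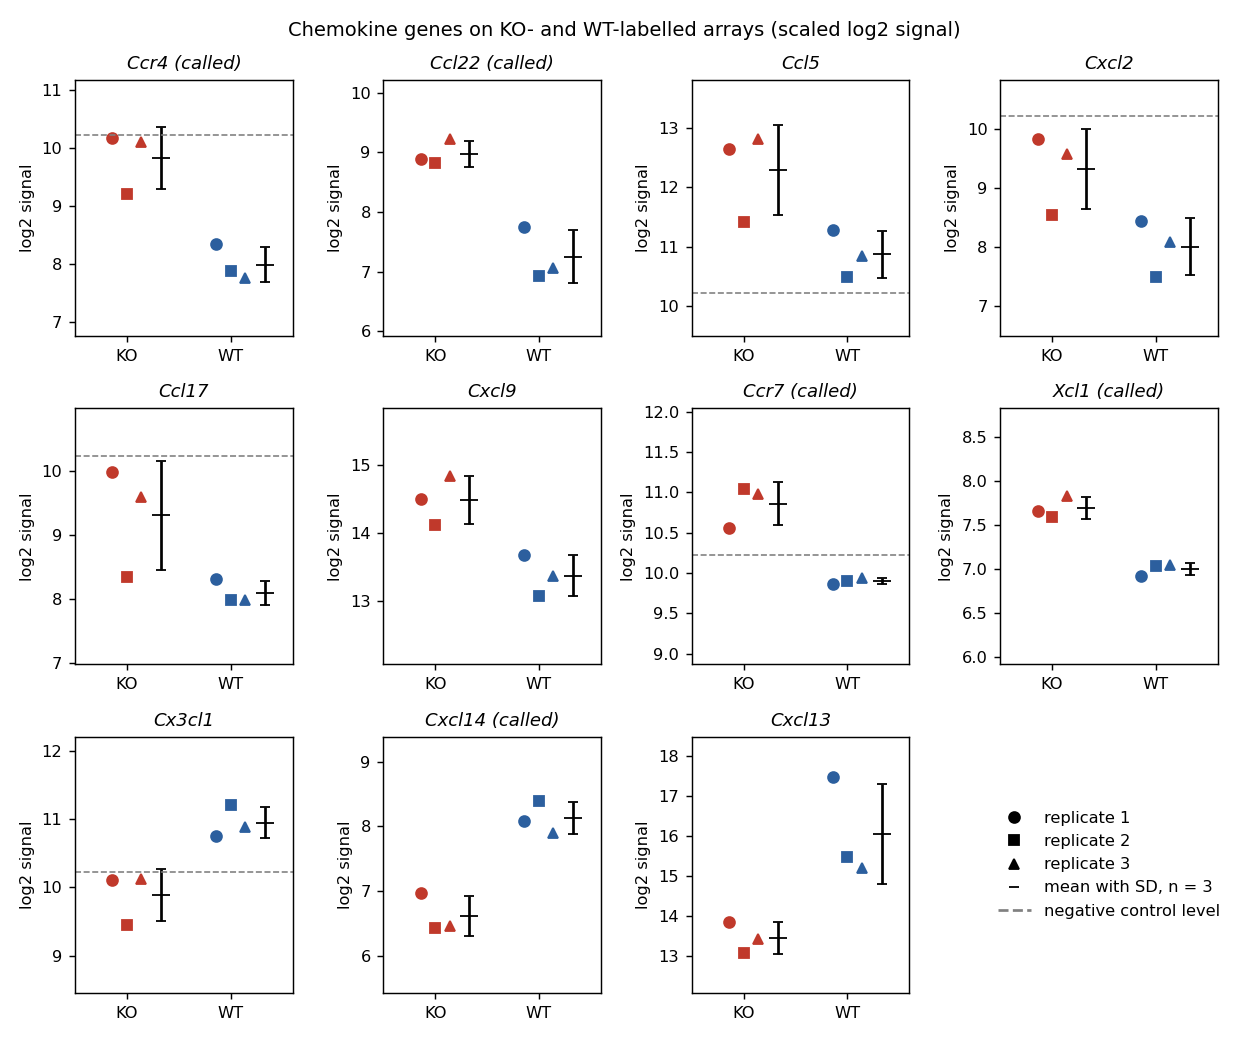
Log2 signal on each array for the 5 called genes and for 6 others with groups apart by at least 1, KO-labelled left and WT-labelled right, with replicate numbers as symbols and the mean with its SD (n = 3) in black. Each panel has its own range of values, the dashed line is the negative control level of 10.22 where it falls in range, and the WT-labelled values of Cxcl13 spread most, with replicate 1 at 17.49.

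Cxcl13, which brings CXCR5-bearing B cells and follicular helper T cells into lymphoid follicles, had the largest difference of any member and did not pass the test. It read 13.86, 13.08 and 13.42 on the KO-labelled arrays, against 17.49, 15.49 and 15.20 on the WT-labelled arrays, a difference of -2.61 (SE 0.57, adjusted p = 0.0693), with every KO-labelled array below every WT-labelled array. Its SD was 0.39 on the KO-labelled arrays and 1.25 on the WT-labelled arrays, where replicate 1 stood 2.00 above the next. Without WT replicate 1 the difference was -1.89. The gene was bright in both groups, and among genes with a mean above the negative control level it passed (adjusted p = 0.0206 over 4446 genes, of which 2.7% were called higher and 9.31% lower). Cxcr5, its receptor, read 7.60, 7.36 and 7.52 on the KO-labelled arrays, against 7.15, 6.90 and 6.95 on the WT-labelled arrays, without overlap but in the opposite direction and not above the negative control level (difference 0.49, SE 0.13, adjusted p = 0.098). Of 5 measured B cell markers none was called by limma, while p before adjustment was under 0.05 for 1 higher and 2 lower, against 5.86% and 17.9% of all genes. Their summed signal was 9.80 to 10.63 on the KO-labelled arrays, against 10.96 to 11.38 on the WT-labelled arrays. Ighm, the immunoglobulin heavy chain of IgM, differed by -1.75 (adjusted p = 0.0643) and passed the negative control level on the WT-labelled arrays alone, while Jchain differed by -0.70 and Cd79a by 0.34. The part of B cells in these values was not tested.

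The CXCR3 ligands, which interferon induces and which attract activated T cells, did not move as one. Cxcl9 read 14.51, 14.13 and 14.84 on the KO-labelled arrays, against 13.69, 13.08 and 13.38 on the WT-labelled arrays, a difference of 1.11 (SE 0.23, adjusted p = 0.0623). Cxcl10 read 13.57, 13.09 and 13.62 on the KO-labelled arrays, against 14.21, 14.09 and 13.85 on the WT-labelled arrays, a difference of -0.62 (SE 0.18, adjusted p = 0.114). Both genes were above the negative control level on all arrays, neither had overlapping groups, and their differences had opposite signs, although only 1 protein-coding gene stands between them. The third ligand, Cxcl11, overlapped (0.20, SE 0.27, adjusted p = 0.691), as did the receptor Cxcr3 (-0.08, SE 0.13, adjusted p = 0.742). Among the genes with a mean above the negative control level, Cxcl9 passed (adjusted p = 0.025). Cxcl16, a membrane-bound ligand that epithelium and dendritic cells present to CXCR6 on T cells, read 12.01, 11.47 and 12.32 on the KO-labelled arrays, against 12.24, 12.15 and 12.37 on the WT-labelled arrays (difference -0.32, SE 0.22, adjusted p = 0.426), with a sign that turned after quantile normalization (0.007).

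Cx3cl1, or fractalkine, a membrane-anchored ligand that binds monocytes and macrophages through CX3CR1, read 10.11, 9.46 and 10.12 on the KO-labelled arrays, against 10.76, 11.21 and 10.89 on the WT-labelled arrays. The groups lay apart, by -1.06 (SE 0.22, adjusted p = 0.063), and the mean passed the negative control level only on the WT-labelled arrays. Among genes whose mean over the arrays was above that level its adjusted p by limma was 0.0262. It entered that set only through the WT-labelled arrays, so this is no added support. On chromosome 8 Cx3cl1 stands between Ccl22 and Ccl17 with no other protein-coding gene on either side, and both of those differed upward. Its receptor Cx3cr1 read 5.97, 7.45 and 6.44 on the KO-labelled arrays, against 6.15, 5.98 and 5.97 on the WT-labelled arrays (difference 0.59, SE 0.35, adjusted p = 0.35). KO replicates 2 and 3 lay above all WT-labelled arrays, replicate 2 the highest, and KO replicate 1 did not. These neighbours were set side by side after their values were known, so no test of their contrast was made.

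**Figure D4:**
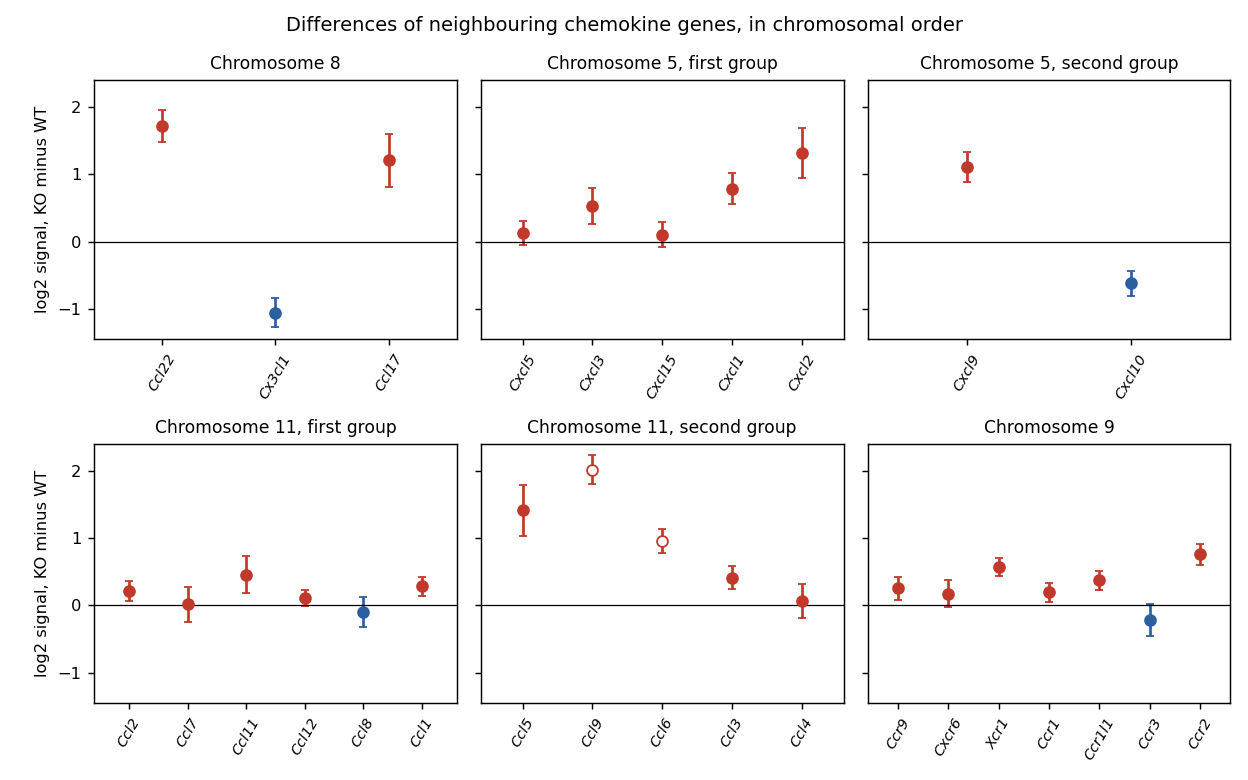
Difference in log2 signal, KO-labelled minus WT-labelled arrays, with bars of 1 SE, for chemokine genes that stand next to each other, in chromosomal order and not to scale of distance. Open points are ligands outside the naming rule, red is above 0 and blue below; Ccl22 and Ccl17 lie at 1.72 and 1.21 around Cx3cl1 at -1.06.

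The inflammatory CC genes, the ligands and receptors of monocytes, eosinophils and effector T cells, held 14 members, none of them called by limma and 4 of them higher at an unadjusted p under 0.05, where 5.86% of all genes were. Ccl5, a ligand that attracts effector T cells and monocytes, read 12.64, 11.42 and 12.81 on the KO-labelled arrays, against 11.28, 10.50 and 10.84 on the WT-labelled arrays, without overlap (difference 1.42, SE 0.38, adjusted p = 0.098). The gene was above the negative control level on all arrays, and KO replicate 2 was the lowest of its group. Without that replicate the difference was 1.85 (adjusted p = 0.00598), in a fit where 5.15% of all genes were called higher. With any other single array left out, the adjusted p of Ccl5 was 0.159 to 0.352. Ccl11, or eotaxin, read 15.99, 15.46 and 15.13 on the KO-labelled arrays, against 15.49, 14.71 and 15.00 on the WT-labelled arrays, bright but overlapping (difference 0.46, SE 0.28, adjusted p = 0.356). Ccr2, the receptor that monocytes use to leave the marrow, read 6.19, 6.62 and 6.61 on the KO-labelled arrays, against 5.80, 5.69 and 5.65 on the WT-labelled arrays, apart but at a signal not above the negative control level (difference 0.76, SE 0.16, adjusted p = 0.0612). Of the other 11, 3 lay apart and higher (Ccl3, Ccr1l1 and Ccr1), where 8.14% of all genes did, and 8 overlapped. Their differences ran from -0.22 for Ccr3 to 0.41 for Ccl3.

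On chromosome 11 the inflammatory CC ligands stand in groups of neighbours, and the values of the groups overlapped. Ccl5, Ccl9, Ccl6, Ccl3 and Ccl4 stand in this order, with differences of 1.42, 2.02, 0.96, 0.41 and 0.06. In the other group Ccl2, Ccl7, Ccl11, Ccl12, Ccl8 and Ccl1 had differences of 0.21, 0.02, 0.46, 0.11, -0.09 and 0.29. Ccl9 and Ccl6, ligands of CCR1 known from myeloid cells of the mouse, stand outside the naming rule. Ccl9 was called (adjusted p = 0.0256) and Ccl6 was not (adjusted p = 0.0518).

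The ligands of CXCR2, which recruit neutrophils, all had differences above 0, of which Cxcl15 turned with 1 array left out, and none was called by limma. Cxcl2 read 9.84, 8.55 and 9.58 on the KO-labelled arrays, against 8.45, 7.49 and 8.08 on the WT-labelled arrays, without overlap (difference 1.32, SE 0.38, adjusted p = 0.108). Cxcl1 read 9.35, 8.64 and 9.32 on the KO-labelled arrays, against 8.54, 8.02 and 8.39 on the WT-labelled arrays, also apart (difference 0.79, SE 0.23, adjusted p = 0.116). For both genes, KO replicate 2 was lowest in its group and lay only 0.10 above the highest WT-labelled array. Cxcl3, Cxcl5 and Cxcl15 overlapped, with differences of 0.53, 0.13 and 0.10, and the receptors Cxcr1 and Cxcr2 overlapped at 0.34 and 0.22. None of the 7 genes of this axis was above the negative control level, and Cxcl1 and Cxcl2 were the 2 with an unadjusted p under 0.05. All 6 neutrophil markers had differences above 0, 3 lay apart and 4 had an unadjusted p under 0.05. Of all genes 8.14% lay apart and higher, and 5.86% were higher at that p. S100a8 was called higher by 2.18 (adjusted p = 0.0313), Ly6g, S100a9 and Mpo differed by 1.44, 1.09 and 0.68, and the summed signal of the list was 11.97 to 12.92 on the KO-labelled arrays, against 10.46 to 11.07 on the WT-labelled arrays. Their part in the values of the CXCR2 ligands was not tested.

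The remaining receptors were dim. Ccr6, which binds Ccl20 on B cells, some T cells and dendritic cells, read 6.31, 6.42 and 6.20 on the KO-labelled arrays, against 5.76, 5.61 and 5.78 on the WT-labelled arrays, without overlap (difference 0.59, SE 0.13, adjusted p = 0.0646), and Ccl20, outside the naming rule, was called higher by 2.04 (adjusted p = 0.0262). Cxcr4, the receptor of the progenitor-retaining ligand Cxcl12, overlapped between groups (difference 0.75, SE 0.24, adjusted p = 0.134), and Cxcl12 itself, a cortical ligand outside the rule, differed by -1.08 (adjusted p = 0.0803). Ccr9, which with the cortical ligand Ccl25 brings progenitors to the thymus, overlapped (difference 0.25, SE 0.17, adjusted p = 0.411), as did Ccl25 (-0.23, adjusted p = 0.418). Ccl1 lay apart by 0.29 (adjusted p = 0.267), while its receptor Ccr8 overlapped, as did Cxcr6 and Ackr1, with differences of 0.25, 0.18 and 0.07. Ackr3 and Ackr2, each on a probe set that also carries an older symbol, differed by 0.00 and 0.31, and neither was called.

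Taken by role, 8 of the 20 receptors lay apart and higher (40.0%, against 8.14% of all genes), none lay apart and lower (against 26.4% of all genes), and 19 were not above the negative control level in either group. Their median difference was 0.31, and for the 19 with a mean up to the negative control level it was 0.27, where all genes with such a mean had -0.02. For ligands the median was 0.13, with 10 of 31 apart and higher (32.3%) and 6 apart and lower (19.4%). The 29 members that met none of the criteria for full description were all at or below the negative control level, none was called by limma, 7 were higher at an unadjusted p under 0.05 (against 5.86% of all genes), and their differences ran from -0.22 to 0.79. Those of the 29 given above by value, such as Ccr2, Ccr6, Cxcr5 and Cxcl1, were singled out after their values were seen.

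Markers of leukocytes differed between the groups as well. Of 15 measured genes of dendritic cells and macrophages, Lyz2, Mrc1 and C1qb were called higher, by 1.83, 1.26 and 0.69, and the summed signal of the list was 14.28 to 14.98 on the KO-labelled arrays, against 12.77 to 13.34 on the WT-labelled arrays. Of these 15 only Lyz2, the lysozyme gene of myeloid cells, was above the negative control level by its mean (13.69), and it led the sum. In all, 14 of the 15 had differences above 0, 8 lay apart and higher and 6 had an unadjusted p under 0.05. Of all 30176 genes, 13123 had differences above 0. Of them 0.517% were called higher, 8.14% lay apart and higher, and 5.86% were higher at that unadjusted p. Itgam and Adgre1, of myeloid cells and macrophages, differed by 0.81 and 0.61 without overlap, and Itgax and Tyrobp overlapped at 0.13 and 0.10. Of 10 thymocyte markers none was called by limma or had an unadjusted p under 0.05, and their sums overlapped (11.50 to 13.06 on the KO-labelled arrays, against 11.78 to 12.51 on the WT-labelled arrays). All 10 had differences above 0, from 0.06 to 0.42, with overlapping groups. Ptprc, which encodes the CD45 used in the sort, differed by 0.11 and was not above the negative control level. The part of such cells in the values of Ccr4, Ccr7, Ccr2, Xcr1 and the other receptors was not tested. All 6 epithelial markers were bright, with sums of 19.53 to 19.82 on the KO-labelled arrays, against 19.99 to 20.29 on the WT-labelled arrays. None was called by limma, all 6 had differences below 0, 5 lay apart and lower and 4 had an unadjusted p under 0.05. Of all genes 26.4% lay apart and lower, and 17.9% were lower at that p. None of 6 fibroblast and 6 endothelial markers was called by limma. Among them only Pdgfrb, of fibroblasts, had an unadjusted p under 0.05, where 5.86% of all genes were higher. It differed by 0.49 with overlapping groups.

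Of 37 further genes that pass on or limit chemokine signals (G protein subunits, receptor kinases, arrestins, regulators of G protein signaling and the enzymes below them), none was called by limma or by the methods' t-test after Benjamini-Hochberg adjustment, while an unadjusted p under 0.05 was found for 4 in the higher direction, or 10.8%, and 3 in the lower, or 8.11%, against 5.86% and 17.9% of all genes. Their median difference was 0.01. Rac2, a GTPase of blood cells that acts in migration, read 12.35, 11.55 and 12.33 on the KO-labelled arrays, against 11.06, 10.46 and 10.80 on the WT-labelled arrays (difference 1.30, SE 0.26, adjusted p = 0.0577). Grk3, a kinase that desensitizes receptors, read 9.03, 8.21 and 8.96 on the KO-labelled arrays, against 9.66, 9.91 and 9.64 on the WT-labelled arrays (difference -1.003, SE 0.23, adjusted p = 0.0758). The groups lay apart for both, in opposite directions.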

How the data were processed

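RNA from sorted epithelial cells was hybridised to Affymetrix whole-transcriptome arrays, 3 per group. The authors deposited log2 signals, made with MAS5 per the submitters' processing notes, for 72688 probe sets. The methods describe scaling to the median of each chip and of each gene, but array medians differ and genes are not centred in the deposited values. The genome build is not given in the sources used here. The GEO platform annotation gave 1 symbol to 30638 of 65956 transcript clusters, several to 2176 and none to 33142. Single-symbol clusters were reduced to 30176 genes by highest mean, each array was shifted to a common median over genes, and KO and WT labels were compared with limma 3.58.1 (lmFit and eBayes) in R 4.3.3, Benjamini-Hochberg adjusted over all genes. The script was tested on simulated data. The members, lists and motifs were chosen with earlier results of these data known.

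Full values were given for members that were called, that lay apart by at least 1, that had a mean above the 95th percentile of the negative controls, that belong to an axis with a called member, or that the study lists for these arrays, and other members were described by counts or as partners and neighbours. Alternatives changed the scaling, the filter on dim probe sets, the choice of probe set, the test, the weights and the arrays used. The number of arrays limits the precision.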

Additional observations from a re-analysis of the deposited data

How the results depend on the processing

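The number of genes called was 512 of 30176, against 2198 after quantile normalization, 4543 with array weights, 4 with the methods' t-test after Benjamini-Hochberg adjustment, 7161 at an unadjusted p under 0.05 and 5816 with that t-test unadjusted, which was chosen after seeing the data. Members called higher were 4 of 51, where 156 of all 30176 genes were. They were 7 without the shift between arrays (367 of all genes), 13 after quantile normalization (1146) and 17 with array weights (1813). They were 0 and 13 with the methods' t-test adjusted and unadjusted (3 and 1545 of all genes), 17 at an unadjusted p (1768) and 2 with a 2-fold minimum (116). Members called lower were 1 (356 of all genes), against 3 after quantile normalization (1052) and 4 with array weights (2730). They were 2 with either filter on dim probe sets (414 of 4446 and 499 of 4755 genes). They were 0 and 6 with the adjusted and unadjusted t-test (1 and 4271 of all genes), and 6 at an unadjusted p (5393). Leaving out 1 array gave 0 to 3381 genes, 0 to 15 members higher and 0 to 3 lower, the upper ends without KO replicate 2. In that fit 5.15% of all genes were called higher and 6.05% lower. The called genes split into 156 higher and 356 lower, against 367 and 355 without the shift and 1146 and 1052 after quantile normalization, and the median of all genes was -0.05, against 0.08 and -0.02. With either filter Ccl5, Ccr7 and Cxcl9 were called higher and Cx3cl1 and Cxcl13 lower, of 10 or 11 members tested. Of all genes tested there, 120 of 4446 and 130 of 4755 were called higher. Ccr7 met these filters only through the KO-labelled arrays and Cx3cl1 only through the WT-labelled arrays, so their calls there are no added support.

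Among the 22 members described in full, signs reversed for Ccl19 (0.083 without the shift, 0.15 after quantile normalization, and -0.168 to 0.085 with 1 array left out), Ccl19-ps1 (0.09 after quantile normalization, and -0.275 to 0.010 with 1 array left out) and Cxcl16 (0.007 after quantile normalization). Of the other 29, 9 turned under at least 1 alternative (Ccl4, Ccl7, Ccl8, Ccl24, Ccl26, Cxcl11, Cxcl15, Cxcr3 and Cxcr6). Socs3 was 0.54 higher after quantile normalization. The cause of these changes was not tested. Replicate numbers did not pair the arrays (correlations of deviations 0.07, -0.13 and -0.18). With the replicate block 29 genes were called, 25 higher and 4 lower, and 0 members in either direction. Signals near the negative control level limit what can be read for 40 of the 51 genes.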
